A study of Mus musculus with 36 samples.

Results

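Fgf5, Otx2, Pou3f1, Sox3, Zic2 and Lef1 are 6 genes that mouse embryonic stem cells (mES cells) switch on or raise as they leave the naive state for the formative and primed states. They were chosen by gene symbol, and each was present in all 6 deposited tables, which together list 22979 genes, 18419 of them in every table. The tables hold SLAM-seq, in which cells build 4-thiouridine (4sU) into the RNA they make during a pulse, and chemistry turns it into a T-to-C change in the reads. The 36 libraries came from 3 clonal degron lines of interspecific Cast x 129S background, in which the endogenous Xist promoter on the 129S allele was replaced with a TetOn promoter and Xist carries a Bgl stem loop. In clone 12D it is METTL3, in Y12H YTHDC1 and in Z12H ZCCHC8 that carries an FKBP12 F36V tag, which leads to loss of the protein when dTAG-13 is added. All libraries, Ctrl included, came from cells given doxycycline at 1 µg/ml, 20 h before and 4 h during a pulse with 500 µM 4sU. The dTAG arm also received dTAG-13, starting 2 h before doxycycline, and the Ctrl arm did not. After the pulse came a chase with 50 mM uridine of 0, 90 or 180 min. There were 2 replicates in each of the 18 groups, so that each arm of a line had 6 libraries. Each line is a single clone, so a difference between lines cannot be told apart from a difference between clones. The labels only number the replicates, while the study states for its cell culture work that the wells of a replicate came from 1 batch of cells divided at random over conditions. The 6 libraries of an arm are therefore not 6 independent cultures, and p-values measure the spread between these samples, which may be technical.

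Naive pluripotent cells, the state of the early epiblast, are held in culture by LIF and pass through a formative state before they become primed for gastrulation. On the way, OTX2 redirects OCT4 to new enhancers, and POU3F1 (also called OCT6) is a POU factor. FGF5 is secreted as a hallmark ligand of the postimplantation epiblast. SOX3 is a relative of SOX2, and ZIC2 is a zinc finger factor of epiblast and neural enhancers. LEF1 is a DNA-binding partner of beta-catenin through which Wnt signals raise transcription. METTL3 is the catalytic subunit that writes N6-methyladenosine (m6A) on RNA, YTHDC1 reads m6A in the nucleus, and ZCCHC8 belongs to the NEXT complex, an adaptor of the nuclear exosome. The labels state that the cells were grown in serum and LIF with fibroblast feeders, which the methods say were removed by preplating.

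Library depth ranged from 5274684 to 18652000 reads with the ZCCHC8 libraries between 5274684 and 10257631. The stem cell label held: the 8 embryonic stem cell markers (Pou5f1, Sox2, Nanog, Zfp42, Esrrb, Sall4, Dppa5a and Utf1) summed to between 2520 and 3790 CPM (read counts relative to library size, scaled by TMM) in every library, while 8 fibroblast markers summed to 7.9 to 30.5 CPM, with Lum at 0 in 22 libraries. Depletion is of protein, so mRNA levels of the tagged genes do not check it: Mettl3 was at 54.0 to 64.7 CPM in Ctrl and 54.9 to 62.1 CPM in dTAG libraries of its line, and Zcchc8 at 27.9 to 41.7 and 32.0 to 42.1 CPM. Ythdc1 was at 160.0 to 320.0 CPM in Ctrl and 327.0 to 421.0 CPM in dTAG libraries of the YTHDC1 line. This rise was not confined to that line. In the METTL3 line Ythdc1 was at 217.0 to 305.0 CPM in Ctrl and 313.0 to 448.0 CPM in dTAG libraries. In the ZCCHC8 line it was at 162.0 to 225.0 and 182.0 to 211.0 CPM. As these are bulk libraries, a change in the number of cells that express a gene and a change of RNA per cell cannot be told apart.

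The sequence most often methylated by METTL3 is GGACT, with the A as the modified base, so the transcripts of the 6 genes were searched for it on the sense strand. In 1 coding transcript per gene (GENCODE M21, mm10), Pou3f1 held 5 copies, Otx2, Zic2 and Sox3 held 3 each, Lef1 held 1 and Fgf5 held 0. Of 13394 coding genes tested in the METTL3 line, 91.9% held at least 1 copy, and among the 3066 whose transcripts were 2000 to 3000 bases long, as the 2501 bases of Fgf5 are, 7.1% held none. The related words GGACA and GGACC were found 1 and 3 times in Fgf5. A match is a description of letters and does not show that the base is methylated. The windows below show the copies of Otx2 and Lef1, which differed in response between lines, and those in the 3′ UTRs of Pou3f1 and Sox3, with the GGACT in capitals and 12 bases on either side, 5′ to 3′ on the transcript's strand.
Otx2, 5′ UTR, minus strand, chr14:48665053-48665081: tgctgatctgccGGACTgcagggcagaga
Otx2, coding, minus strand, chr14:48662459-48662487: cacttcgggtatGGACTtgctgcatccct
Otx2, coding, minus strand, chr14:48658963-48658991: ctttgggggcatGGACTgtggatcttatt
Lef1, 5′ UTR, plus strand, chr3:131110890-131110918: tctgaaggaagtGGACTtttcggtatttt
Pou3f1, 3′ UTR, plus strand, chr4:124659051-124659079: cagtgaccctgcGGACTgggttccccgcc
Pou3f1, 3′ UTR, plus strand, chr4:124659110-124659138: cgcgcgcggcctGGACTctttttgttgtt
Pou3f1, 3′ UTR, plus strand, chr4:124659508-124659536: tctcccgggcgcGGACTccctgtagcctg
Sox3, 3′ UTR, minus strand, chrX:60891876-60891904: gcagcggaaatgGGACTtgctagagccgc

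A second short word, ATTTA, is the core of the AU-rich elements known from the 3′ UTRs of many short-lived mRNAs, and it was counted because several of these genes lost label quickly. The 3′ UTR held 6 copies in Pou3f1, 4 in Fgf5, 3 in Lef1, 2 in Otx2, 1 in Sox3 and 0 in Zic2, and 66.1% of the coding genes held at least 1. The 4 copies of Fgf5, on the plus strand, are shown because its 3′ UTR of 1478 bases holds no GGACT, with ATTTA in capitals.
Fgf5, chr5:98275697-98275725: ctgctttctaaaATTTAagtcgaaacaga
Fgf5, chr5:98276147-98276175: caagtcgtataaATTTAgttctacatttt
Fgf5, chr5:98276316-98276344: acgttttgatggATTTAaaggctttatgt
Fgf5, chr5:98276383-98276411: gcgtccacagagATTTAactctgtctttt

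Fgf5 (ENSMUSG00000029337) lies on chromosome 5 from 98254184 to 98277030 and has 3 exons, and no other annotated gene overlaps it. Otx2 (ENSMUSG00000021848, chromosome 14, 48657677 to 48673819) overlaps Otx2os1 on the opposite strand and Gm49154 on its own. Pou3f1 (ENSMUSG00000090125, chromosome 4, 124656807 to 124660655) has 1 exon, as 3.1% of the coding genes do, and an antisense gene, Gm2164, overlaps it. Zic2 (ENSMUSG00000061524, chromosome 14, 122475435 to 122479852) has 3 exons and lies 236 bases from 2610035F20Rik on the other strand. Sox3 (ENSMUSG00000045179, X chromosome, 60891366 to 60893430) also has 1 exon. It lies on the chromosome from which Xist was induced in both arms, and its reads were not split by allele here. Lef1 (ENSMUSG00000027985, chromosome 3, 131110471 to 131224356) has 12 exons, with Gm43352 antisense and Gm42449 on the same strand. The kit preserved strand, but whether counting used it is not stated in the sources used here, so reads of Otx2, Pou3f1 and Lef1 cannot be separated with certainty from those of the genes that overlap them.

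Depth behind these genes was modest. Otx2 and Zic2 had at least 30 reads in all 36 libraries, at 44 to 692 and 64 to 326 reads. Pou3f1 had 25 to 133 reads and reached 30 in 32 libraries, Lef1 had 9 to 118 and reached it in 26, and Sox3 had 6 to 71 and reached it in 22. Fgf5 had 1 to 144 reads and reached 30 in 12 libraries, 11 of them of the METTL3 line. Per length, as RPKM (CPM per 1000 bases of the deposited gene length), the Ctrl level was 9.68 ± 4.66 for Otx2, 5.59 ± 2.44 for Zic2, 1.41 ± 0.639 for Sox3, 1.32 ± 0.489 for Pou3f1, 1.09 ± 0.715 for Lef1 and 0.776 ± 0.619 for Fgf5 (SD, n = 18 libraries of 3 lines). Otx2 stood above 54.1% of 13678 expressed genes on this scale and Zic2 above 41.2%, whereas the other 4 stood above 10.3% to 17.8%. The levels of Sox3, Pou3f1, Lef1 and Fgf5 overlapped widely and their order is within the spread.

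**Figure D1:**
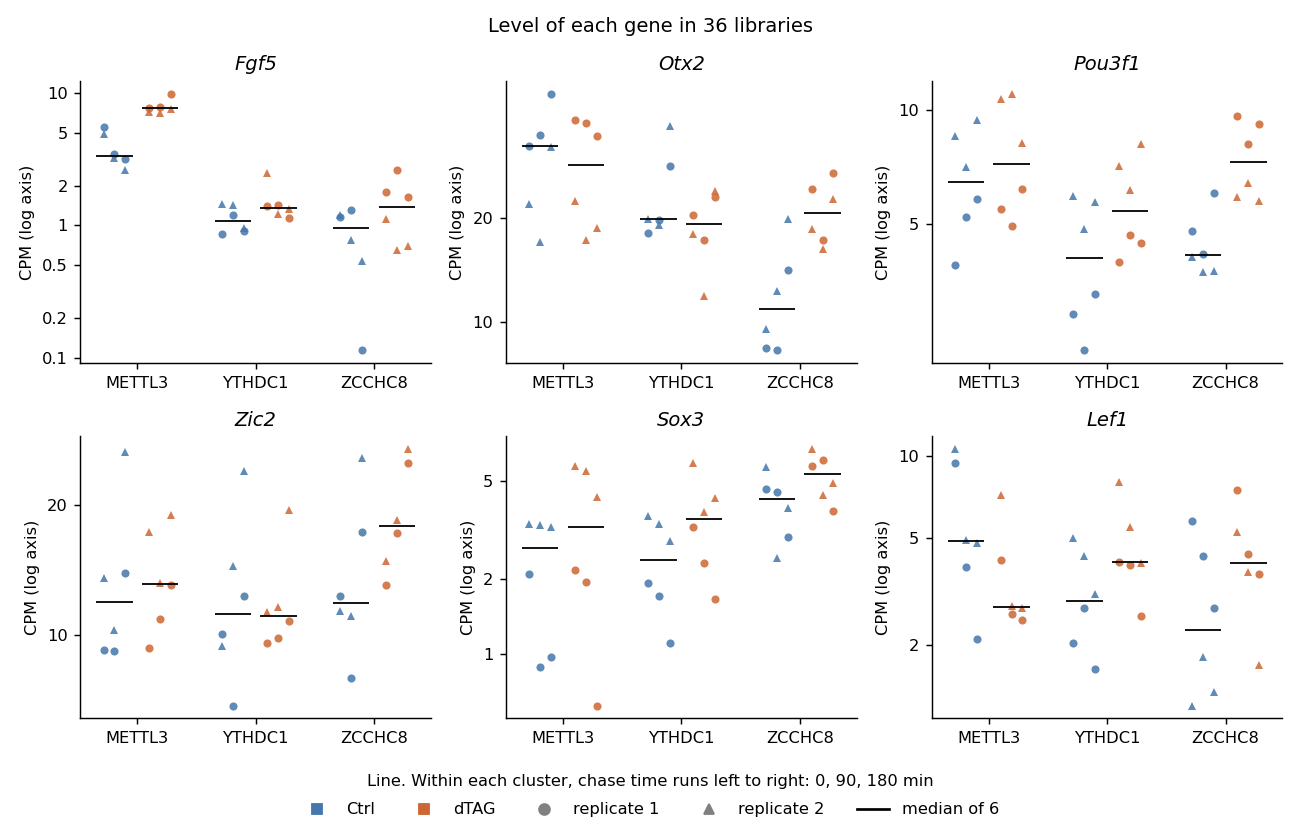
CPM of each gene on a log axis in the 36 libraries, by line and arm (Ctrl blue, dTAG orange), with chase time running from 0 to 180 min within each cluster, replicates 1 and 2 as circles and triangles, and a bar at the median of 6. All 6 dTAG libraries of the METTL3 line lie above all 6 Ctrl libraries for Fgf5, which was not counted over all genes, and Otx2 has its lowest median in the Ctrl libraries of the ZCCHC8 line, at 10.9 CPM, with a range that overlaps the other groups.

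Before any depletion, the lines already differed in 2 of these genes. Fgf5, the ligand, was at a lowest, median and highest level of 2.63, 3.35 and 5.57 CPM in Ctrl libraries of the METTL3 line, against 0.868, 1.08 and 1.46 CPM in those of the YTHDC1 line and 0.114, 0.961 and 1.31 CPM in those of the ZCCHC8 line. Its range in the METTL3 line did not overlap the other 2, which overlapped each other. How many of all genes do so was not counted. The METTL3 line was higher than the YTHDC1 line by 1.72 on the log2 scale (SE 0.217, adjusted p 0.000433 in edgeR), where 2.48% of all genes tested passed the threshold of 0.05 (1.57% higher and 0.914% lower), and the ZCCHC8 line was lower than the METTL3 line by a log2 fold change of -2.17 (SE 0.251, adjusted p 0.000121 in edgeR), where 31.2% did (13.1% higher and 18.1% lower). ZCCHC8 and YTHDC1 lines did not pass the test against each other for Fgf5 (-0.45, adjusted p 0.252 in edgeR), where 13.8% of genes did (5.11% higher and 8.73% lower).

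Otx2, the transcription factor that opens formative enhancers, had 16.98, 32.1 and 45.6 CPM as lowest, median and highest Ctrl level in the METTL3 line, 18.04, 19.8 and 36.7 CPM in the YTHDC1 line, and 8.31, 10.9 and 19.8 CPM in the ZCCHC8 line. The ZCCHC8 line was the lowest, by -0.93 on the log2 scale against the YTHDC1 line (SE 0.177, adjusted p 0.00664 in edgeR) and by -1.34 against the METTL3 line (SE 0.177, adjusted p 0.000368 in edgeR). The latter was -1.85 with replicate 1 only and -0.73 with replicate 2 only, past the threshold in both. Otx2 in the METTL3 and YTHDC1 lines did not pass the test (0.41, adjusted p 0.213 in edgeR), and the sign of that difference turned between replicates, at 0.80 with replicate 1 only but -0.08 with replicate 2 only. Pou3f1, Sox3, Zic2 and Lef1 passed in none of the 3 line pairs. For Lef1 the difference between the ZCCHC8 and YTHDC1 lines was 0.98 with replicate 1 only but -1.47 with replicate 2 only, and for Pou3f1 it was 0.87 and -0.47, so the order of those lines was set by the replicate. Other values changed in size with the replicate: Sox3 in the ZCCHC8 line was higher than in the YTHDC1 and METTL3 lines by 1.42 and 1.73 with replicate 1 only but by 0.32 and 0.31 with replicate 2 only. For ZCCHC8 minus METTL3, Lef1 was -0.12 with replicate 1 only but -2.17 with replicate 2 only, and Pou3f1 was 0.015 and -1.07.

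Loss of METTL3 raised Fgf5. Its lowest, median and highest levels were 2.63, 3.35 and 5.57 CPM in Ctrl and 7.09, 7.69 and 9.92 CPM in dTAG libraries, and the arms did not overlap. The share of all genes whose arms do not overlap was not counted. The mean went from 3.84 ± 1.15 to 7.91 ± 1.03 CPM (SD, n = 6). On the log2 scale this was a change of 1.10 (SE 0.187, adjusted p 0.00237 in edgeR, higher in 6 of 6 pairs matched by chase time and replicate). This was 1 of 6 genes past the threshold, where 19.9% of 13819 genes were called, 11.2% as higher and 8.66% as lower. When the 3 chase libraries of each arm and replicate were summed to give 2 against 2, the log2 fold change was about the same, at 1.07, with an edgeR adjusted p of 0.466, a setting in which no gene of all those tested passed in this line.

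The other 5 genes did not pass the test in the METTL3 line in the fit without replicate as a block. Lef1 was at 2.11, 4.84 and 10.6 CPM in Ctrl and 2.48, 2.76 and 7.17 CPM in dTAG libraries (lowest, median, highest), so that the arms overlapped, and it was lower with dTAG in 5 of 6 pairs (log2 fold change -0.63, SE 0.22, adjusted p 0.0675 in edgeR). With replicate as a block, Lef1 fell (-0.65, SE 0.161, adjusted p 0.00202 in edgeR) and Sox3 rose (0.58, adjusted p 0.0202 in edgeR), so that 3 of 6 passed, and DESeq2 also called Lef1 (adjusted p 0.0245). Over all genes in this line the alternative fits called 0 to 7398, against 2751 without the block. The all-gene count with the block is not given here, so the 3 of 6 have no share to be set against. Sox3 was higher in 5 of 6 pairs, at a log2 fold change of 0.59 without the block (SE 0.514, adjusted p 0.473 in edgeR). Its replicates stood far apart in this line: Ctrl levels were 0.887 to 2.10 CPM in replicate 1 and 3.24 to 3.33 CPM in replicate 2. Pou3f1 (0.25), Zic2 (0.09) and Otx2 (-0.08) had edgeR adjusted p-values of 0.593 to 0.875, and each was higher in 4 of 6 pairs.

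In the fit without replicate as a block, depletion of YTHDC1 called 0 of the 6 genes, where 5.36% of 13700 genes were called, 2.44% as higher and 2.92% as lower. None of the 6 had an unadjusted edgeR p under 0.05 except Otx2, at 0.0378. Otx2 was at 18.04, 19.8 and 36.7 CPM in Ctrl and 11.9, 19.2 and 23.9 CPM in dTAG libraries, lower in 5 of 6 pairs (log2 fold change -0.29, SE 0.123, adjusted p 0.228 in edgeR). Pou3f1, Sox3 and Lef1 were higher in 6 of 6 pairs each, by 0.47, 0.53 and 0.57 on the log2 scale (SE 0.268, 0.323 and 0.273, adjusted p 0.388 in edgeR, 0.427 and 0.288), while the ranges of the arms overlapped for all 3. With replicate as a block these 3 passed as higher (adjusted p 0.00372 in edgeR, 0.00787 and 0.00243) and Otx2 as lower (-0.30, adjusted p 0.0391 in edgeR), making 4 of 6. Over all genes that fit called 3857 in this line, against 734 without the block. With the chase libraries summed none of these 4 genes passed (log2 fold changes of -0.32 to 0.58, adjusted p 1.0 in edgeR), nor did any other gene in this line. Replicate 2 alone gave -0.50 for Otx2 (adjusted p 0.000667 in edgeR) and replicate 1 alone -0.10 (adjusted p 0.648 in edgeR). Fgf5 (0.39, adjusted p 0.363 in edgeR) rested on 9 to 30 reads per library, and Zic2 (-0.05, adjusted p 0.958 in edgeR) was higher in 2 and lower in 4 of 6 pairs.

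Depletion of ZCCHC8 raised 3 transcription factors, Otx2, Pou3f1 and Zic2. They were 3 of the 5 genes that could be tested, where 39.6% of 13413 genes were called in either direction, 19.1% as higher and 20.4% as lower. Otx2 had a lowest, median and highest level of 8.31, 10.9 and 19.8 CPM in Ctrl and 16.3, 20.6 and 26.98 CPM in dTAG libraries, a log2 fold change of 0.84 (SE 0.127, adjusted p 2.64e-05 in edgeR), and was higher in 6 of 6 pairs although the full ranges overlapped. Replicate 1 alone gave 1.18 and replicate 2 alone 0.50, both past the threshold. At 0 min its replicates were at 8.44 and 9.53 CPM in Ctrl and 24.2 and 18.6 CPM in dTAG libraries.

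Pou3f1, the POU factor, was at 3.73, 4.13 and 6.03 CPM in Ctrl and 5.74, 7.28 and 9.64 CPM in dTAG libraries of the ZCCHC8 line. It was higher in 6 of 6 pairs (log2 fold change 0.79, SE 0.163, adjusted p 0.000456 in edgeR), and 4 of 6 dTAG libraries were above all Ctrl libraries. Zic2, a zinc finger factor of epiblast and neural enhancers, was at 7.95, 11.8 and 25.6 CPM in Ctrl and 13.1, 17.8 and 26.9 CPM in dTAG libraries. It was higher in 6 of 6 pairs (0.50, SE 0.123, adjusted p 0.00283 in edgeR), and its level rose over the chase in both arms, which widened the ranges. All 3 also passed with chase libraries summed, with edgeR adjusted p-values of 0.00337 for Otx2, 0.0208 for Pou3f1 and 0.0215 for Zic2.

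Sox3 (0.39, SE 0.164, adjusted p 0.0622 in edgeR) and Lef1 (0.65, SE 0.326, adjusted p 0.13 in edgeR) were higher in 6 of 6 pairs in the ZCCHC8 line without passing, and both passed with replicate as a block (0.38 and 0.69, adjusted p 0.0481 in edgeR and 0.00341), making 5 of 5. With the chase libraries summed neither passed (0.39 and 0.70, adjusted p 0.106 and 0.237 in edgeR). Over all genes in this line the alternative fits called 3270 to 6150, against 5305 without the block. The all-gene count with the block is not given here, so the 5 of 5 have no share to be set against. Lef1 depended on the replicate: at 0 min it went from 5.76 to 7.49 CPM in replicate 1 and from 1.19 to 5.25 CPM in replicate 2, and replicate 2 alone gave 1.29 (adjusted p 0.000185 in edgeR). Fgf5 had 1 to 14 reads per library in this line and was not tested. Without the filter on low counts its log2 fold change was 0.71 (SE 0.317, adjusted p 0.0768 in edgeR).

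**Figure D2:**
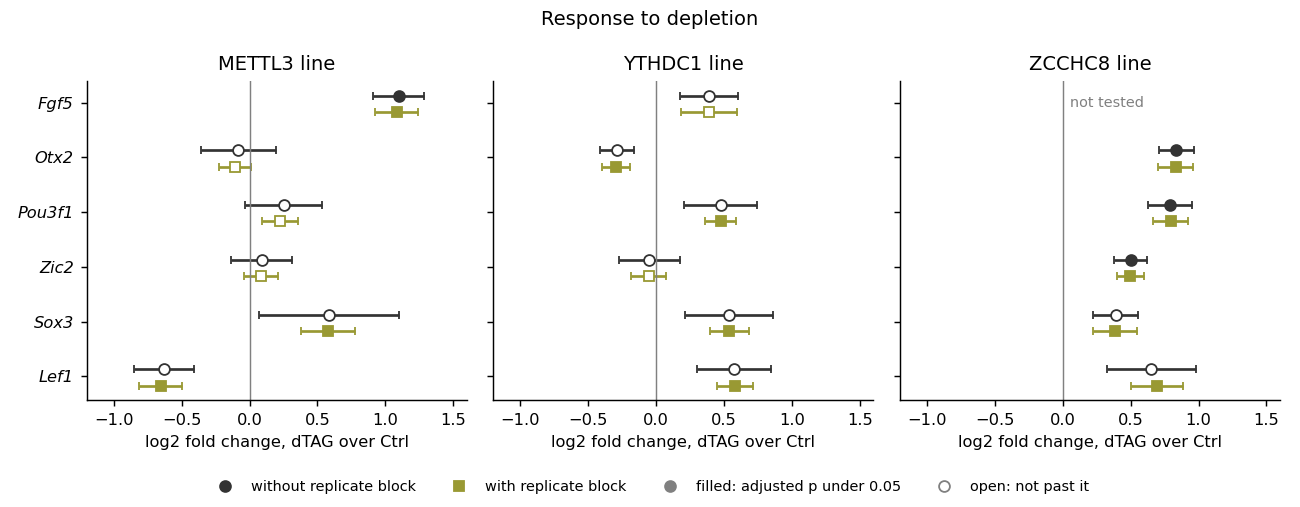
Log2 fold change of dTAG over Ctrl with its SE for each gene and line, from edgeR fits without (circles) and with (squares) the replicate number as a block, filled where the adjusted p was under 0.05. Without the block, Fgf5 passed in the METTL3 line and Otx2, Pou3f1 and Zic2 in the ZCCHC8 line, and with it 3, 4 and 5 genes passed in the METTL3, YTHDC1 and ZCCHC8 lines. Over all genes the block raised the calls in the YTHDC1 line from 734 to 3857. The all-gene counts with the block in the METTL3 and ZCCHC8 lines are not given.

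Direct tests of the difference between lines, as an interaction over all 36 libraries, called Otx2 and Lef1. Otx2 responded more to loss of ZCCHC8 than to loss of YTHDC1, by 1.09 on the log2 scale (SE 0.3, adjusted p 0.0128 in edgeR), where 14.3% of 14679 genes were called (7.12% higher and 7.19% lower), and more than to loss of METTL3, by 0.92 (SE 0.298, adjusted p 0.0242 in edgeR), where 24.0% were (11.2% higher and 12.8% lower). Lef1 differed by -1.24 between METTL3 and YTHDC1 (SE 0.412, adjusted p 0.0311 in edgeR), where 21.2% were called (10.6% higher and 10.5% lower), and by 1.24 between ZCCHC8 and METTL3 (SE 0.438, adjusted p 0.0393 in edgeR). Both Lef1 calls were lost when low-count genes were kept in, at adjusted p 0.0543 and 0.0608. Fgf5 passed in the METTL3 line alone, but its response there did not pass against that of the YTHDC1 line (difference 0.67, SE 0.36, adjusted p 0.197 in edgeR) or the ZCCHC8 line (-0.33, SE 0.43, adjusted p 0.644 in edgeR). Zic2 and Pou3f1 did not pass between any pair of lines in this fit, and with the block Zic2 did between ZCCHC8 and YTHDC1 (0.50, adjusted p 0.0447 in edgeR) and Pou3f1 between ZCCHC8 and METTL3 (0.55, adjusted p 0.0103 in edgeR).

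Of the 6 genes, 4 changed level during the chase itself, without depletion. Comparing 180 with 0 min in the 18 Ctrl libraries, Otx2 rose by 0.70 (SE 0.173, adjusted p 0.00266 in edgeR) and Zic2 by 0.85 on the log2 scale (SE 0.215, adjusted p 0.00345 in edgeR), while Fgf5 (-0.86, SE 0.239, adjusted p 0.00644 in edgeR) and Lef1 (-1.05, SE 0.363, adjusted p 0.0229 in edgeR) fell. That made 4 of 6, against 52.0% of all 14005 genes tested, 26.9% as higher and 25.1% as lower. Otx2 went from 18.4 ± 8.78 to 29.4 ± 11.4 CPM and Zic2 from 10.98 ± 1.71 to 19.9 ± 6.19 CPM (SD, n = 6 libraries of 3 lines), and both were higher at 180 min in 6 of 6 line and replicate combinations. Lef1 went from 5.67 ± 3.82 to 2.61 ± 1.24 CPM and Fgf5 from 2.53 ± 2.13 to 1.39 ± 1.22 CPM, each higher in 1 of 6. Sox3 was lower in 6 of 6 (-0.52, adjusted p 0.209 in edgeR, and past the threshold with the block, 0.0155), and Pou3f1 did not pass (0.13, adjusted p 0.672 in edgeR). The Fgf5 call was lost without replicate 2 (-0.81, adjusted p 0.0981), and that of Lef1 without the filter on low counts (-1.03, adjusted p 0.0548).

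In the dTAG arm the same comparison looked different for some genes. Otx2 at 180 min was 1.41 to 2.08 times its 0 min level in the 6 Ctrl combinations and 0.832 to 1.33 times in the 6 dTAG combinations. The ratio of dTAG to Ctrl for Otx2 was lower at 180 than at 0 min in 6 of 6 combinations, going from 1.18 to 0.755 and from 1.02 to 0.582 in the METTL3 line, from 1.13 to 0.813 and from 0.902 to 0.65 in the YTHDC1 line, and from 2.87 to 1.91 and from 1.95 to 1.14 in the ZCCHC8 line (replicates 1 and 2). It was also lower in 5 of 6 for Zic2, in 4 of 6 each for Pou3f1, Sox3 and Lef1, and in 2 of 6 for Fgf5. The share of all genes that do so was not counted. Fgf5 in the METTL3 line went the other way. In Ctrl it fell from 5.57 to 3.16 and from 4.95 to 2.63 CPM, whereas in dTAG libraries it was at 7.82 and 9.92 CPM in replicate 1 and 7.26 and 7.56 CPM in replicate 2, so that the ratio went from 1.40 to 3.14 and from 1.47 to 2.87. These changes of the ratio with time were not tested.

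**Figure D3:**
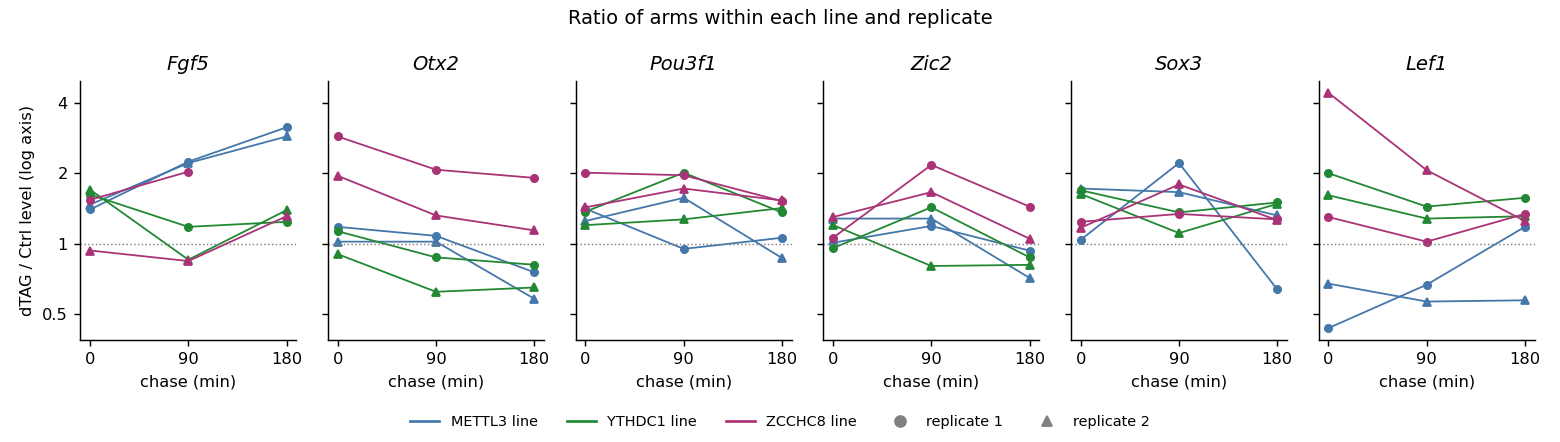
Ratio of dTAG to Ctrl level on a log axis against chase time, a line for each of the 6 combinations of degron line (colour) and replicate (marker), leaving out ratios with a library under 3 reads. For Otx2 all 6 lines end lower than they start, as do 5 of 6 for Zic2, and for Fgf5 both METTL3 lines end higher, at 3.14 and 2.87.

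Most RNA of Otx2 and Zic2 was new at the end of the pulse. The new-to-total ratio, the part of the reads that GRAND-SLAM takes to be new RNA (maximum of the posterior, given where a library had at least 30 reads), was 82.5% to 95.2% for Otx2 and 87.3% to 96.96% for Zic2 in the 6 Ctrl libraries at 0 min. On the mean over these libraries, Otx2 (89.8%) was above 82.7% and Zic2 (91.4%) above 85.4% of 10215 genes. The counts behind single values limit them: for Otx2 in the Ctrl replicates of the ZCCHC8 line, with 44 and 72 reads, the 5% to 95% posterior range was 83.1% to 98.5% and 78.98% to 95.1%.

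Label then left Otx2 and Zic2 quickly. By 180 min the ratio in Ctrl libraries was 24.4% to 41.1% for Otx2 and 18.5% to 39.0% for Zic2, which was 33.6 ± 6.62% and 28.2 ± 8.75% of the 0 min value (SD over 6 line and replicate combinations), against 87.2% for the median gene. Of the 10215 genes, 2.9% kept a smaller share than Otx2 and 0.92% a smaller share than Zic2. For many of the 10215 genes the ratio was higher at 180 min than at 0 min, which loss of label alone does not give. These ranks therefore order genes by the ratio and not by decay. The log-linear half-life of label was 116 ± 21.9 min for Otx2, from 94.9 to 148 min, and 101 ± 28.0 min for Zic2, from 80.1 to 155 min. It was longest in the ZCCHC8 line for both, at 148 and 138 min for Otx2 and 155 and 104 min for Zic2 in its 2 Ctrl replicates. Genes at large shared this. From 0 to 180 min the median ratio of genes with at least 100 reads went from 49.1% to 57.2% and from 56.4% to 47.5% there. It went from 59.6% to 43.0% and 61.3% to 45.9% in METTL3 Ctrl, and from 56.0% to 41.2% and 61.1% to 39.4% in YTHDC1 Ctrl libraries. The half-life given is that of a share of reads, which unlabelled RNA made in the chase lowers just as decay of labelled RNA does, and both genes rose in level over the chase. The T-to-C rate, which does not pass through the model, fell from 7.84 ± 1.40% to 1.54 ± 0.262% for Otx2 and from 7.40 ± 0.777% to 1.38 ± 0.45% for Zic2 (SD, n = 6).

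**Figure D4:**
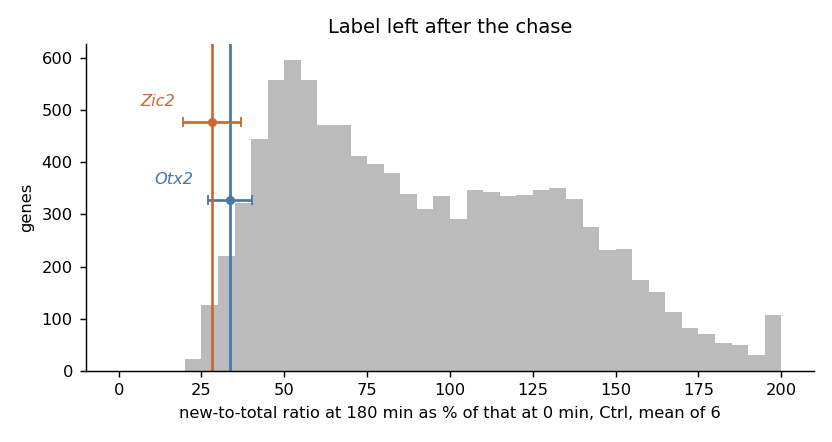
Histogram of 10215 genes by the new-to-total ratio at 180 min as a percent of that at 0 min, mean of 6 Ctrl combinations, with Otx2 and Zic2 as lines with their SD (the last bar holds all genes at 195% or more). Both lie in the left tail, at 33.6% and 28.2%, while many genes had a higher ratio at 180 min than at 0 min.

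Pou3f1 also lost label where its reads sufficed, but its Ctrl series were uneven. In the METTL3 line it started at 70.8% and 89.0%, with 46.3% and 20.6% of that ratio left at 180 min (replicates 1 and 2). In replicate 2 of the YTHDC1 line 34.0% was left. In the 4 Ctrl libraries with values at 180 min from the METTL3 and YTHDC1 lines the Pou3f1 ratio was 18.4% to 32.8%, and its Ctrl T-to-C rate fell from 6.66 ± 1.57% to 1.59 ± 0.707%. In the ZCCHC8 line 1 Ctrl library had a value at 180 min, of 49.3%. Fgf5 in Ctrl replicate 1 of the METTL3 line went from 84.9% to 59.2% and 35.9%, with 42.3% of the ratio left, and in replicate 2 it was 94.2% at 0 min and 96.3% at 90 min, with too few reads at 180 min. In the dTAG libraries of that line 41.7% of the Fgf5 ratio was left in replicate 1 and 68.75% in replicate 2, and the difference between arms was not tested. Lef1 kept more: in the 2 Ctrl series with enough reads 64.8% and 58.3% of the ratio was left at 180 min, and the T-to-C rate fell from 5.90 ± 0.781% to 3.41 ± 0.753%. Sox3 was uneven. In replicate 2 of the METTL3 line 48.6% of the ratio was left in Ctrl, while in dTAG libraries it did not fall, at 41.4% at 0 min and 43.9% at 180 min. In replicate 2 of the YTHDC1 line 25.0% was left without dTAG-13 and 35.9% with it, and the 2 dTAG series of the ZCCHC8 line kept 92.7% and 76.97%, with no Ctrl series to set beside them.

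**Figure D5:**
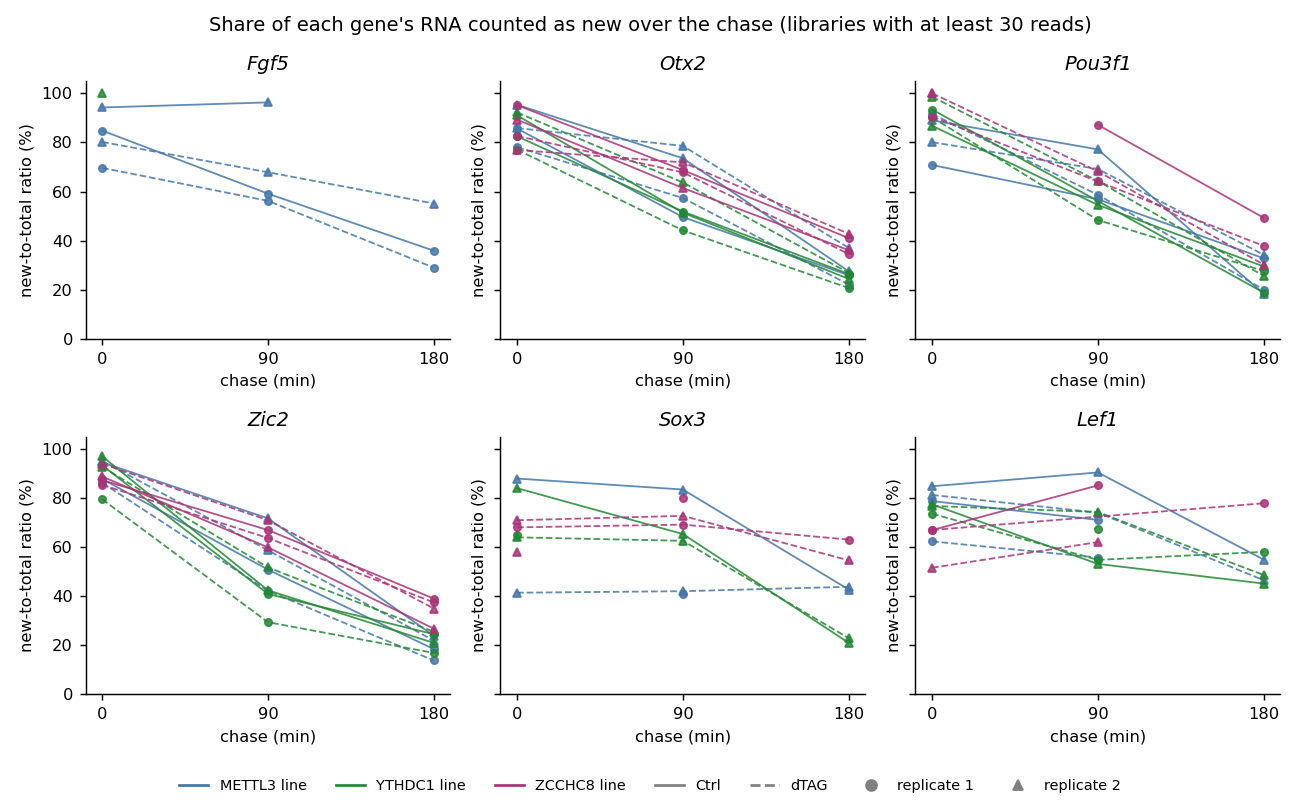
New-to-total ratio in percent against chase time for each gene, by degron line (colour), arm (solid Ctrl, dashed dTAG) and replicate (marker), showing only libraries with at least 30 reads. Otx2, Zic2 and Pou3f1 fall in every series shown, while Lef1 and Sox3 have fewer points, and those of Sox3 range from 25.0% of the 0 min ratio left at 180 min to no fall.

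No change of label loss with depletion was detected in Otx2, Zic2 or Pou3f1 where they could be tested. Fgf5, Sox3 and Lef1 had too few reads to be tested in any line. With at least 100 reads in every library of a line, only Otx2 could be tested, in the METTL3 line (difference in slope 0.08 log2 per h, SE 0.118, limma adjusted p 0.986) and the YTHDC1 line (-0.02, SE 0.0859, limma adjusted p 1.0). In these tests 30 of 8289 genes (0.362%) passed in the METTL3 line and 0 of 8820 in the YTHDC1 line, where 173 had an unadjusted limma p under 0.05. With a minimum of 30 reads, Zic2 could also be tested in all 3 lines (-0.09, 0.01 and 0.05 log2 per h, SE 0.13, 0.11 and 0.0865), Otx2 in the ZCCHC8 line (0.07, SE 0.0783) and Pou3f1 in the METTL3 line (0.00, SE 0.156), and none passed (limma adjusted p 0.968 to 1.0). The slope of Otx2 in the METTL3 line was 0.19 without replicate 1 and -0.03 without replicate 2. A miss at this depth leaves room for differences of the order of these errors.

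For genes whose level rose, new and old RNA can be compared at 0 min. In the ZCCHC8 line, Otx2 RNA assigned as new was 8.04 and 8.51 CPM in Ctrl and 20.0 and 14.3 CPM in dTAG libraries (replicates 1 and 2), and old RNA was 0.406 and 1.02 against 4.21 and 4.29 CPM. In the METTL3 line, new Fgf5 RNA was 4.73 and 4.67 CPM in Ctrl and 5.45 and 5.82 CPM in dTAG libraries, and old RNA was 0.844 and 0.286 against 2.37 and 1.44 CPM. The ratio itself was lower with dTAG in both replicates of both genes, at 69.7% and 80.2% against 84.9% and 94.2% for Fgf5 and at 82.6% and 76.95% against 95.2% and 89.3% for Otx2. The 5% to 95% posterior ranges of the arms overlapped in each of these comparisons. For Fgf5 they were 60.7% to 77.4% against 72.2% to 92.4% in replicate 1 and 71.5% to 86.8% against 84.2% to 97.95% in replicate 2. The Fgf5 values in Ctrl rest on 53 and 55 reads, so its old RNA there rests on few reads. Zic2 in the ZCCHC8 line did not have a lower ratio in both replicates: its ratio went from 87.3% to 85.4% in replicate 1 and from 88.8% to 93.9% in replicate 2, where old RNA went from 1.28 to 0.901 CPM. Pou3f1 in that line had no old RNA assigned in either arm of replicate 2, and its Ctrl library of replicate 1 had too few reads. The median ratio of genes with at least 100 reads moved with it in the METTL3 line, from 59.6% and 61.3% in Ctrl to 52.7% and 49.1% in dTAG libraries at 0 min, and in the ZCCHC8 line went from 49.1% and 56.4% to 53.3% and 50.8%. Their part in the result was not tested.

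Of 22 other formative and primed genes measured, 4 passed in the METTL3 line (3 higher, 1 lower), 5 in the YTHDC1 line (4 higher, 1 lower), and 11 in the ZCCHC8 line (10 higher, 1 lower), against 19.9%, 5.36% and 39.6% of all genes. Their median log2 fold changes were 0.17, -0.03 and 0.24. Over all genes tested the median was 0.005 in the METTL3 line and -0.01 in the ZCCHC8 line. In the METTL3 line Eomes, a T-box factor of the mesendoderm, rose by 1.80 (SE 0.182, adjusted p 0.000154 in edgeR) and Tcf15 by 1.18 (adjusted p 0.0219 in edgeR), while the DNA methyltransferase gene Dnmt3b fell by 0.51 on the log2 scale (SE 0.0936, adjusted p 0.00342 in edgeR). In the YTHDC1 line Nodal (0.47, adjusted p 0.0258 in edgeR) and Etv4 (0.41, adjusted p 0.0124 in edgeR) rose. In the ZCCHC8 line Sox11 (0.64), Eomes (0.53) and Foxd3 (0.52) rose most among those called, and Tead2 fell by 0.17.

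The summed level of 6 mesendoderm markers (T, Eomes, Mixl1, Gsc, Foxa2, Tbx6), most of it from Eomes, moved with Fgf5 in the METTL3 line. Only T and Eomes could be tested there, and Eomes passed while T did not (0.66, adjusted p 0.0551 in edgeR). The sum was 4.78 to 11.8 CPM in Ctrl and 10.8 to 33.9 CPM in dTAG libraries, so that the arms met only at their ends. The same sum was 4.51 to 10.5 CPM in Ctrl and 4.83 to 12.1 CPM in dTAG libraries of the YTHDC1 line, and 6.15 to 12.4 and 6.63 to 14.0 CPM for ZCCHC8. Foxa2 was at 0 reads in 14 libraries. Of 3 neural genes tested in the METTL3 line, Pax6 rose by 1.14 (SE 0.179, adjusted p 0.00158 in edgeR) while Sox1 (-0.22, adjusted p 0.759 in edgeR) and Nes (0.21, adjusted p 0.469 in edgeR) did not pass, and the sum of 6 neural markers was 50.3 to 109 CPM in Ctrl and 66.3 to 114 CPM in dTAG libraries. Pax6 also rose in the ZCCHC8 line (0.82, adjusted p 0.000639 in edgeR), where the neural marker sum, most of it from Nes, was 71.0 to 119 CPM in Ctrl and 85.1 to 114 CPM in dTAG libraries. Their part in the results for the 6 genes was not tested. Of the 12 naive pluripotency genes, 1 passed in the METTL3 line (Nr0b1, -0.62, adjusted p 0.00291 in edgeR) and 0 in the YTHDC1 line. In the ZCCHC8 line 5 passed (4 higher, 1 lower), near the 39.6% of all genes, with Dppa3 (0.49), Klf2 (0.31) and Tcl1 (0.27) higher and Tfcp2l1 lower (-0.14). Genes on the X chromosome, from which Xist was induced in both arms, were not set apart in any of these lists.

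Genes that act with the members were measured too. Of the 4 FGF receptor genes, 0 passed in the METTL3 and YTHDC1 lines, and 3 in the ZCCHC8 line (39.6% of all genes), where Fgfr3 (0.79, adjusted p 0.000572 in edgeR) and Fgfr2 (0.66, adjusted p 7.97e-07 in edgeR) rose and Fgfr1 fell by 0.20 on the log2 scale (adjusted p 0.00314 in edgeR). Among Wnt and beta-catenin pathway genes, 1 of 11 passed in the METTL3 line (Axin1, 0.43), 0 of 10 in the YTHDC1 line and 5 of 10 in the ZCCHC8 line, where 39.6% of all genes were called. There the feedback target Axin2 (0.72, adjusted p 0.000944 in edgeR) and the receptor gene Lgr4 (0.35) rose, and Apc (-0.37) and Gsk3b (-0.30), parts of the complex that destroys beta-catenin, fell with Znrf3 (-0.20). Of 14 gene family relatives, 6 passed in the ZCCHC8 line (5 higher, 1 lower), again near the 39.6% of all genes, with Fgf15 (0.76), Sox1 (0.58) and Sox21 (0.49) higher and Tcf7, the relative of Lef1, lower (-0.20).

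By their pattern over the 36 libraries (log2 CPM after the mean of each line and replicate was subtracted, among 11864 genes), the genes most like Otx2 were Xbp1 (Pearson r 0.823), Zfp553 (0.80) and Zbtb10 (0.79). Those most like Zic2 were Mycn (0.899), Plk3 (0.87) and Zfp553 (0.869). Otx2 and Zic2 were alike at r = 0.75, Otx2 and Pou3f1 at 0.508, and Lef1 and Zic2 at -0.325. These are descriptions, since the libraries share chase time, depth and arm.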

How the data were processed

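Groups and replicate numbers came from the sample labels. Per the methods, the authors removed ribosomal reads, aligned the rest to mm10 with STAR 2.5.2b, keeping unique end-to-end alignments with mismatches up to 0.06 of read length, and ran GRAND-SLAM for each line and replicate. Its version and strand setting are not given in the sources used here. A mismatch limit can remove heavily converted reads. The deposited read counts are raw whole numbers per gene. The deposited new-to-total ratio is a fraction from 0 to 1, estimated by the authors separately in each of the 6 tables, as MAP, posterior mean and 5% and 95% quantiles. The deposited conversion and coverage sums gave T-to-C rates, without background subtraction. The deposited gene length gave RPKM. Of the library columns, 252 were used and 180 were not.

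Counts were tested with edgeR 4.0.16 (R 4.3.3) by its robust quasi-likelihood test after filterByExpr and TMM, with p-values adjusted by Benjamini-Hochberg over every gene in the fit and a threshold of 0.05. Each fit set 6 dTAG against 6 Ctrl libraries of a line with chase time as a factor. Replicate was left out of it, so differences between replicates stayed in its error. CPM is scaled by TMM over 36 libraries. Line differences were interactions over 36 libraries. Label loss was tested on log2 MAP with limma 3.58.1, where arm was crossed with chase time in hours, in genes whose libraries all had 100 reads or more and ratios of 0.02 or more. On simulated counts with 200 genes changed by 1 (log2), 66.5% were recovered for METTL3, 80.5% for YTHDC1 and 95% for ZCCHC8. The simulated libraries were drawn independently, without differences shared within a replicate, and the changed genes were drawn from all genes tested. These shares may therefore not hold for genes of low level such as Sox3, Pou3f1, Lef1 and Fgf5. DESeq2 1.42.0, RLE size factors, no low-count filter, left-out replicates and summed chase libraries were alternatives. Python 3.11.15, pandas 2.3.3 and matplotlib 3.10.9 were used.

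Replicates differed by more than sampling noise (chi-square per degree of freedom 2.45 to 77.9). The difference between replicates 1 and 2 correlated between Ctrl and dTAG libraries in all 9 line and time combinations (r 0.272 to 0.868 over 11017 genes), both arms of a replicate share a deposited table, and the study states that wells of a replicate came from 1 batch of cells, so the numbers were taken as pairs and the fit with replicate as a block is given where it changes a call. The transcript searched was the principal APPRIS, then the longest, coding transcript.

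Members and gene lists were chosen with earlier results of these data known. Every member is named in every comparison; from other lists, up to 3 genes per direction and line with the largest change past the threshold; for members with at least 30 reads in all libraries, the 3 genes of highest Pearson r, among genes of at least 1 CPM throughout (prior count 2). 1 gene of these lists is not reported here.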

Additional observations from a re-analysis of the deposited data

Results flagged for a closer look

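In 5 of 36 combinations of gene, line and arm, the CPM of 1 library stood apart from the other 5 by a gap larger than Dixon's critical value. Chance gives about 1 in 20 for alike samples. The libraries of a combination span the chase times and both replicates, so that rate does not strictly hold here. Fgf5 in the METTL3 dTAG libraries was highest at 180 min in replicate 1, at 9.92 CPM with the next at 7.83. Fgf5 in the YTHDC1 dTAG libraries was highest at 0 min in replicate 2, at 2.48 CPM from 30 reads, with the next at 1.42. Lef1 in the METTL3 dTAG libraries reached 7.17 CPM at 0 min in replicate 2, with the next at 4.12. Zic2 was highest at 180 min in replicate 2, at 26.5 CPM (next 13.9) in the METTL3 Ctrl libraries and 19.4 CPM (next 11.6) in the YTHDC1 dTAG libraries.

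The response to depletion differed between lines by a test of the difference itself for Otx2 and Lef1. For Otx2 the response was higher in the ZCCHC8 line than in the YTHDC1 line by 1.09 and than in the METTL3 line by 0.92 on the log2 scale. For Lef1 it was -1.24 for METTL3 minus YTHDC1 and 1.24 for ZCCHC8 minus METTL3, with mean levels going from 5.96 to 3.65 CPM in the METTL3 line, from 3.12 to 4.68 CPM in the YTHDC1 line and from 2.85 to 4.36 CPM in the ZCCHC8 line.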

How the results depend on the processing

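Of 383 values of the 6 genes under the alternatives, 319 kept their direction and their side of the threshold, 39 newly passed, 5 no longer passed and 20 changed sign. The calls of Otx2, Pou3f1 and Zic2 in the ZCCHC8 line held under all 7 alternatives, and that of Fgf5 in the METTL3 line under all but summed chase libraries, which left 0 of 6 genes called there (1 without summing). The cause of the changes was not tested, except that summing leaves fewer samples.

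With the replicate block, the genes called numbered 3 in the METTL3, 4 in the YTHDC1 and 5 in the ZCCHC8 line, 2 for ZCCHC8 minus YTHDC1 in response, and 2, 2 and 5 in the Ctrl libraries for METTL3 minus YTHDC1, ZCCHC8 minus YTHDC1 and ZCCHC8 minus METTL3. Calls over all genes also rose with the block in the YTHDC1 line, from 734 to 3857. They rose for ZCCHC8 minus YTHDC1 in response, from 2100 to 4763, and for ZCCHC8 minus METTL3 in Ctrl libraries, from 4367 to 6679. The other member counts in this paragraph have no all-gene count of the same fit beside them. Across lines the samples share only a number, and the calls gained there were Pou3f1 between METTL3 and YTHDC1, Sox3 between ZCCHC8 and both others, and Pou3f1 and Lef1 between ZCCHC8 and METTL3. Beyond these and the calls named in the text, the block changed none of the other member calls. DESeq2 called 2 in the METTL3 line and 4 for ZCCHC8 minus METTL3 in Ctrl. Without the low-count filter 0 were called for METTL3 minus YTHDC1 and 1 for ZCCHC8 minus METTL3 in response. Leaving out either replicate gave 2 to 3 in the METTL3 line and 0 to 4 in the YTHDC1 line, and in Ctrl libraries 2 to 3, 3 to 4 and 3 to 4 for the 3 pairs in that order. From the 0 and 90 min libraries alone the half-life of label was 159 min for Otx2 and 148 min for Zic2.

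Leaving out either replicate gave a range of -0.23 to 0.023 for Otx2 in the METTL3 line and -0.17 to 0.067 for Zic2 in the YTHDC1 line. For differences in response it gave -0.25 to 0.19 for Sox3 and -0.011 to 0.22 for Zic2 (METTL3 minus YTHDC1), -0.40 to 0.98 for Fgf5 and -0.41 to 0.78 for Lef1 (ZCCHC8 minus YTHDC1), and -1.06 to 0.30 for Fgf5 and -0.23 to 0.036 for Sox3 (ZCCHC8 minus METTL3). Between Ctrl libraries it gave -0.082 to 0.80 for Otx2 and -0.31 to 0.014 for Sox3 (METTL3 minus YTHDC1), -0.47 to 0.87 for Pou3f1 and -1.47 to 0.98 for Lef1 (ZCCHC8 minus YTHDC1), and -0.031 to 0.20 for Zic2 and -1.07 to 0.015 for Pou3f1 (ZCCHC8 minus METTL3). For the change in label loss of Otx2 it gave -0.032 to 0.19 in the METTL3 and -0.084 to 0.04 in the YTHDC1 line. Lef1 for ZCCHC8 minus YTHDC1 in response was 0.034 with RLE size factors, 0.021 without the filter, 0.066 with the block and 0.024 with DESeq2. Over all genes, the METTL3 response had 2751 calls as reported and 0 to 7398 under alternatives, YTHDC1 734 and 0 to 3857, and ZCCHC8 5305 and 3270 to 6150. Line differences in response had 3106 (2420 to 6482), 2100 (1516 to 4763) and 3525 (2880 to 6492) calls, Ctrl line differences 348 (146 to 2156), 1938 (1660 to 5608) and 4367 (3386 to 6679), and label loss in the METTL3 line 30 (3 to 200).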
